A study of Saccharomyces cerevisiae with 30 samples.

Results

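The proteasome genes of budding yeast were taken as every gene whose symbol in the platform annotation is PRE, PUP, RPN or RPT followed directly by digits, together with SCL1. The rule gave 34 of the 5449 genes that the annotation names through a probe set of 1 gene. Of these, 32 encode subunits, 14 in the core particle and 18 in the regulatory particle. The other 2 carry a matching symbol but are not subunits: RPN4, the transcription activator of the subunit genes, and RPN14, a chaperone of regulatory particle assembly. All 34 had 1 probe set each, were above the floor set by probe sets of another species on all 30 arrays, and were tested.

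The study measured transcripts on Affymetrix arrays in S288C, a haploid laboratory strain of Saccharomyces cerevisiae, after exposure to eupolauridine-9591 (E9591), liriodenine methiodide (LMT), 2,2'-bipyridyl (BIPR) or 1,10-phenanthroline (PHEN). BIPR and PHEN are metal chelators that the design names as references for the response to iron deficiency. Cultures in buffered synthetic dextrose broth at 30 degrees received each compound at its own IC50 (its half-maximal inhibitory concentration), which was 0.053 µM for E9591, 2.6 µM for LMT, 65.9 µM for BIPR and 6.2 µM for PHEN, or 0.25% DMSO as the control. The 10 groups of 3 replicate cultures, 1 array each, were E9591 at 4 h and its DMSO group, LMT at 4 h and its DMSO group, BIPR and PHEN at 4 h with 1 DMSO group between them, and E9591 and LMT at 15 h with 1 DMSO group between them. The comparisons of BIPR and PHEN therefore share their control arrays, and so do those of E9591 and LMT at 15 h. Because the doses differ, the compounds are set side by side as IC50 exposures and not as equal concentrations.

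The proteasome degrades proteins tagged with ubiquitin. Its core particle is a barrel of alpha rings, which gate the entrance, around beta rings, which hold the protease sites. The regulatory particle caps the barrel: its base carries the ATPases that unfold substrates, and its lid carries the enzyme that removes ubiquitin. In yeast, Rpn4 binds a short element upstream of most subunit genes and raises their transcription, and Rpn4 is itself a short-lived substrate of the proteasome, which closes a feedback loop. Sequences of that element and of the members were not analysed here.

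The values are array intensities that the authors scaled, so that the mean of each array after trimming 2% at each end was between 1000.43 and 1000.82. A change below is a difference between groups in mean log2(intensity + 1), and a gene was called higher or lower at a Benjamini-Hochberg adjusted p under 0.05 over 5429 tested genes from limma's two-sided moderated test, with 3 cultures per group. Since every array is scaled to the same mean, a change is relative to the other transcripts of the array, and RNA per cell was not measured. Array medians lay between 9.83 and 10.26 on the log2 scale, and pairs of arrays of 1 group differed with an SD of 0.18 to 0.39 over genes. Markers of alpha cells and of a cells were above the floor on all 30 arrays (STE3 between 287 and 7543, STE2 between 119 and 2209), so the arrays gave no absent mating type marker to check the strain by. The 3'/5' ratio of the long SRB4 control transcript was 8.41 to 13.7 in the DMSO group beside LMT at 4 h, 8.84 to 15.1 in LMT at 4 h and 8.62 to 9.64 in E9591 at 15 h. It lay between 3.31 and 5.31 in all other groups.

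The transcript of RPN4, the activator, moved more than those of the genes it controls. Over the 10 group means, the subunits spanned a median of 0.73 log2 units each (0.43 to 1.25), against a median of 1.72 over all tested genes. That placed the median subunit at the 7.83 percentile of all genes, so subunit transcripts were among the steadier ones in these cultures. RPN4 spanned 1.81 and stood at the 53.1 percentile. Core and regulatory subunits had median spans of 0.73 and 0.72.

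**Figure D1:**
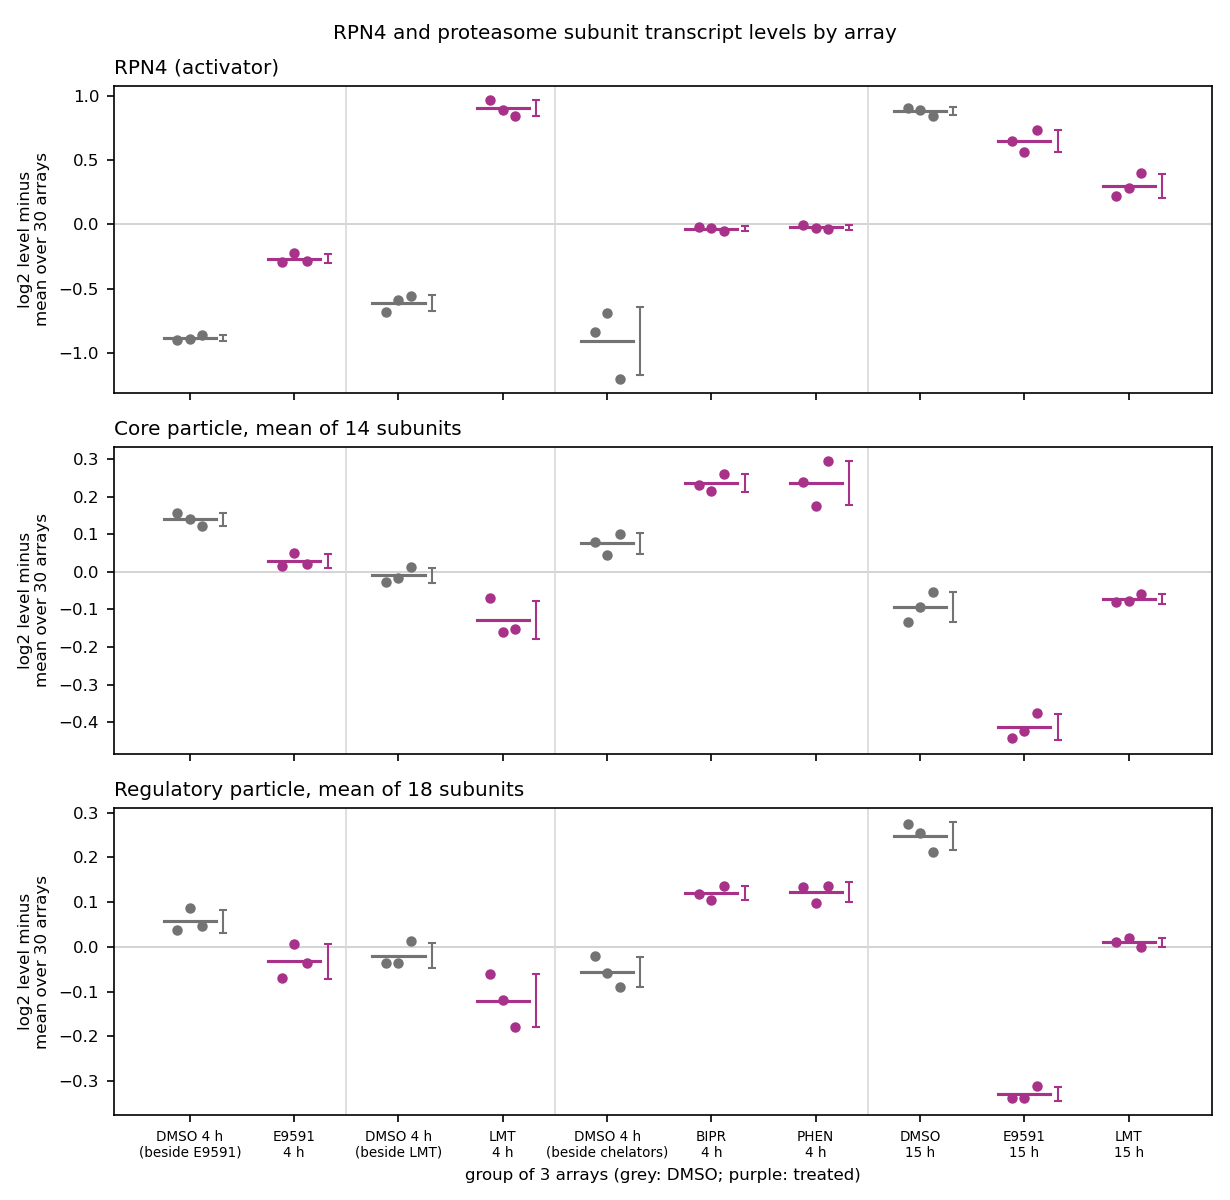
The panels show RPN4, the mean of the 14 core subunits and the mean of the 18 regulatory particle subunits on each array, as log2 level minus the mean over the 30 arrays, for the 10 groups (points, arrays; line, group mean; bar, SD, n = 3; grey DMSO, purple treated). RPN4 lies above its DMSO arrays in all 4 treated groups at 4 h, and the 3 DMSO arrays at 15 h stand apart with high regulatory particle levels. Their RPN4 levels, 0.84 to 0.90, overlap those of LMT at 4 h, 0.85 to 0.97.

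All 4 compounds raised RPN4 at 4 h. Its intensity was 1284, 1293 and 1322 on the DMSO arrays beside E9591 and 1957, 2048 and 1971 with E9591. It was 1491, 1591 and 1625 on the DMSO arrays beside LMT and 4686, 4448 and 4308 with LMT. It was 1338, 1489 and 1042 on the DMSO arrays of the chelator experiment, 2365, 2350.5 and 2312 with BIPR and 2389.6, 2346 and 2337 with PHEN. No treated array overlapped the DMSO arrays of its experiment. In the chelator experiment, DMSO replicate C was the lowest of all 30 arrays for RPN4 and also had the lowest array median.

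The rise of RPN4 was 1.51 ± 0.08 (SE) with LMT (adjusted p = 8.86e-14), a factor of 2.85. It was 0.62 with E9591 (adjusted p = 1.61e-06), with the same SE. The chelators gave 0.88 in the case of BIPR (adjusted p = 4.09e-09) and, for PHEN, 0.89 (adjusted p = 3.29e-09). Between 11.3% and 25.2% of all tested genes were called lower in these comparisons and between 27.7% and 40.4% higher, so a call by itself was common. The effect of E9591 on RPN4 minus that of LMT was -0.90 (adjusted p = 3.12e-06). Without DMSO replicate C, the rises with BIPR and PHEN were 0.73 and 0.74 and stayed called. RPN4 had an SD of 0.26 in that DMSO group and of 0.02 to 0.09 in the other groups. The test pools the spread over all groups. Over the alternatives, the highest adjusted p of RPN4 by limma was 0.000539 with BIPR and 0.000489 with PHEN.

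Beside these rises of RPN4, the counts of called subunits differed between compounds. The effects of the chelators were not tested against those of E9591 or LMT. With BIPR, 17 of 32 subunits rose and 0 fell, where 27.7% of all tested genes were called higher and 18.5% lower. With PHEN, 18 rose and 0 fell, where 29.2% were called higher and 19.7% lower. At an unadjusted p under 0.05, limma also gave 0 lower subunits with either chelator. The median subunit change was 0.17 with both, against 0.04 and 0.05 over all tested genes. The rises were divided between the particles, with 7 core and 10 regulatory subunits for BIPR and 8 and 10 for PHEN. The counts depended on how the arrays were scaled: with each array centred on its median, 7 subunits rose with BIPR and 6 with PHEN. Of 8 control transcripts, 3 had 3'/5' ratios outside those of the DMSO arrays on all BIPR arrays and 1 on all PHEN arrays, and their part was not tested.

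RPN6, a lid scaffold subunit that contacts the core, rose most with BIPR. Its intensity was 4424, 4178 and 4194 in DMSO, 5681, 5654 and 5719 with BIPR and 5681, 5524 and 5333 with PHEN. No DMSO array reached the treated ones, and the rises were 0.41 ± 0.06 (adjusted p = 6.12e-06) and 0.37 (adjusted p = 2.61e-05). RPN11, the lid deubiquitinase, rose by 0.35 and 0.32, and RPN12, a lid subunit, by 0.33 and 0.37. RPN9, another lid subunit, rose by 0.32 and 0.28. PRE8, of the alpha ring, had 4300.4, 4437 and 4097 in DMSO, 5132, 5182 and 5376 with BIPR and 5355, 5262 and 5584 with PHEN, rises of 0.29 and 0.34. RPN13, a ubiquitin receptor of the base, rose by 0.23 and 0.34. Of the subunits called, 5 of 17 with BIPR and 6 of 18 with PHEN kept the call under every alternative. With BIPR, RPN12 and RPN13 were among those that lost it.

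At the other end with the chelators stood RPN1, the base scaffold that receives ubiquitin-like shuttles, at -0.04 and -0.05, RPN8 of the lid at -0.00033 and 0.03, and RPT2, an ATPase, at -0.02 and 0.07. None of these 6 values was called. PHEN against BIPR gave 0 higher and 0 lower subunits, where 0% of all tested genes were called in either direction, and no subunit had an unadjusted p under 0.05 by limma. The subunits' differences lay between -0.14 and 0.11, and their 95% intervals reached from -0.30 to 0.29. For RPN4 the difference was 0.01, with an interval of -0.16 to 0.18.

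With E9591 and LMT at 4 h, the RPN4 transcript rose without a general rise of the subunit transcripts. The arrays do not measure Rpn4 protein. E9591 gave 0 higher and 8 lower subunits, where 32% of all tested genes were called higher and 11.3% lower, and limma gave 0 higher at an unadjusted p under 0.05 as well. The changes were small, between -0.23 and 0.13 with a median of -0.10, and the count lower was 1 once arrays were quantile normalised and 27 once each was centred on its median. Leaving out E9591 replicate A gave 2, leaving out E9591 replicate C gave 3, and leaving out any DMSO array gave 4. The 3'/5' ratio of RIP1 was 1.06 to 1.11 with E9591 and 0.868 to 1.04 in DMSO, and its part was not tested. The subunits called lower were PUP2, PUP1, PRE2, RPT2, PRE9, RPT5, RPN1 and RPN7, of which all but PUP2 lost the call under at least 1 alternative. PRE2, the beta subunit with the chymotrypsin-like site, had 7173, 6681 and 6669 in DMSO and 5973, 5929 and 5684 with E9591, a fall of 0.22 ± 0.08 (adjusted p = 0.0379).

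LMT gave 3 higher and 14 lower subunits at 4 h, where 40.4% of all tested genes were called higher and 25.2% lower. After quantile normalization the counts were 10 and 10, and with centred arrays 0 and 23, so the direction of the family as a whole was not settled by these arrays. The fall of PRE9 was present under each scaling. PRE9, an alpha ring subunit and the core subunit that yeast can live without, had 5481, 5415 and 5788 in DMSO and 4162, 3723 and 3689 with LMT. The groups did not overlap, and the fall was 0.53 ± 0.06 (adjusted p = 5.24e-08). RPN8 fell by 0.43, PRE5 of the alpha ring by 0.41, and the ATPases RPT6 and RPT2 by 0.36 and 0.35.

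The 3 subunits called higher with LMT were RPN2, the second base scaffold (0.20), PRE8 (0.17) and RPN9 (0.15), and with centred arrays all 3 values were negative. RPN2 had 4204, 4134 and 3799.8 in DMSO and 4713, 4726 and 4486 with LMT. Compared directly, the effects of E9591 and LMT differed for 3 subunits, with PRE9 and PRE5 higher under E9591 by 0.35 and 0.33 and PRE8 lower by 0.21. Of all tested genes, 13.5% differed towards E9591 and 12.4% towards LMT. Core and regulatory particle moved by like amounts in each 4 h comparison: their medians differed by 0.01 for E9591, LMT and BIPR, and by -0.03 for PHEN. Within the regulatory particle, the lid and base medians were 0.30 and 0.13 with BIPR and 0.25 and 0.12 with PHEN. They were -0.08 and -0.12 with E9591 and -0.02 and -0.14 with LMT.

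**Figure D2:**
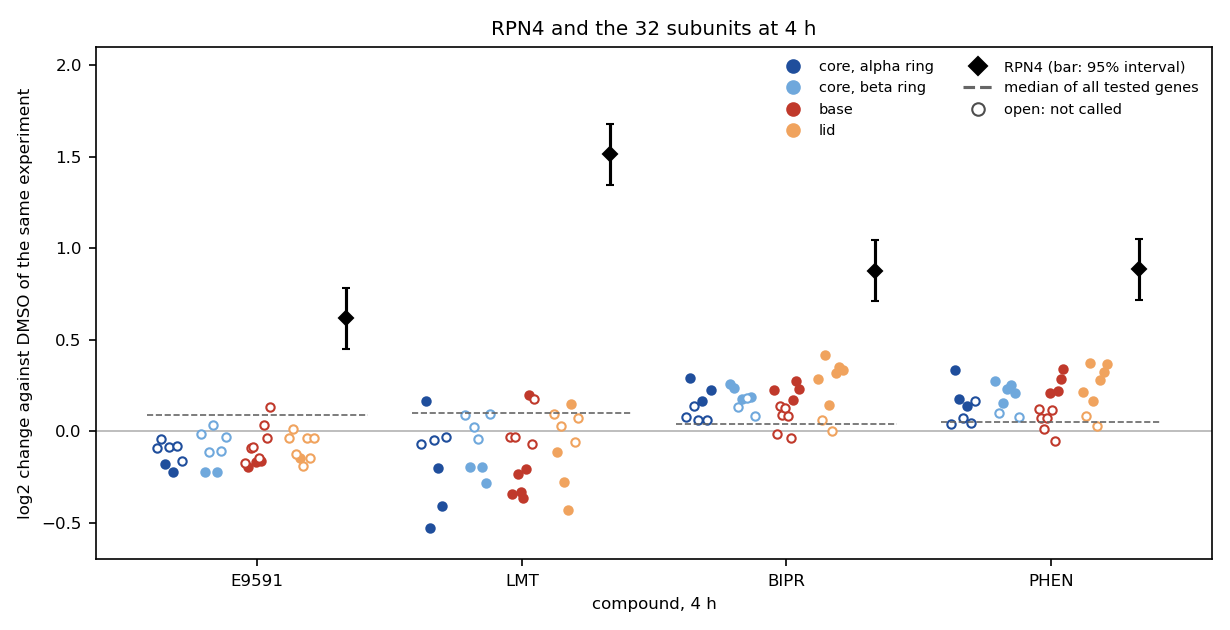
The plot gives the log2 change against DMSO of the same experiment for each of the 32 subunits (points, coloured by ring, base or lid; open points were not called) and for RPN4 (diamond, bar 95% interval) under the 4 compounds at 4 h; the dashed line is the median of all tested genes. RPN4 lies above every subunit under each compound, and the subunits lie mostly above 0 with BIPR and PHEN and on both sides of 0 with LMT.

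The DMSO cultures themselves differed between 15 h and 4 h, and here the particles separated. RPN4 was 4481, 4436 and 4300.4 at 15 h, above all 9 DMSO arrays at 4 h, which ranged from 1042 to 1625. The difference was 1.68 ± 0.07 (adjusted p = 8.02e-18), a factor of 3.2. Of 32 subunits, 16 were higher and 12 lower at 15 h, where 48.3% of all tested genes were called higher and 42.6% lower, so the number of calls was near that of genes in general. The split lay in which subunits they were: 12 of 18 regulatory subunits were higher and 4 lower, and 4 of 14 core subunits were higher and 8 lower. The 15 h arrays come from an experiment of their own, so time in culture and experiment cannot be told apart. The SE and adjusted p of this comparison rest on the spread within groups and leave out differences between the 4 h DMSO groups. Their 3'/5' ratio of ACT1 was 1.46 to 1.51, against 1.15 to 1.34 on the 4 h DMSO arrays. That of TDH1 was 0.863 to 0.985 against 1.03 to 1.29, and that of RIP1 0.774 to 0.863 against 0.868 to 1.20. The other control transcripts overlapped, and the part of these ratios was not tested.

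The median change was 0.47 over the regulatory particle (0.44 in the base, 0.49 in the lid) and -0.16 over the core (-0.16 in the alpha rings, -0.08 in the beta rings). None of the 14 core subunits lay above the regulatory median. The gap between the medians, -0.62, was between -0.64 and -0.56 under the other scalings and settings tried. On single arrays, the mean core level minus the mean regulatory level was -0.41, -0.35 and -0.27 on the 15 h DMSO arrays, below all 27 other arrays, which lay between -0.10 and 0.19.

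Without any model, 14 subunits had all 3 DMSO arrays at 15 h above all 9 at 4 h, where 41.6% of all tested genes did, and 10 had all 3 below, where 36.4% did. Among the 14 were 11 regulatory subunits and 3 of the core, PUP2, PUP3 and PRE7. Among the 10 were 6 core subunits, PRE8, PRE9, PRE6, PRE5, PUP1 and PRE1, and 4 regulatory ones, RPT5, RPN1, RPN7 and RPN9. The calls of 25 of the 28 subunits kept their direction and stayed called under every alternative tried, the exceptions being PRE3, PRE6 and PRE7.

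RPN12 was the subunit with the highest difference. It had 5262, 6332 and 5839 at 15 h, against 2863 to 4243 on the 4 h DMSO arrays, a difference of 0.74 ± 0.06 (adjusted p = 4.88e-11). RPT6, an ATPase, followed at 0.64 with 10294, 8251 and 8549.5 at 15 h against 5459 to 6096. RPN8 was 0.56 higher, RPN13 0.55 and RPN5 0.50. All 5 belong to the regulatory particle.

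RPN1 had the lowest difference, -0.71 ± 0.04 (adjusted p = 1.01e-13), where the SE holds only the spread within groups. It had 4697, 4213 and 4279.9 at 15 h, while the 4 h DMSO groups were themselves apart, with 5377 to 5402 beside LMT, 8076 to 8569.8 beside E9591 and 7891 to 9089 in the chelator experiment. PRE9 was lower by 0.65, and PUP1, the beta subunit with the trypsin-like site, by 0.64. PUP1 had 3181, 3639 and 3664 at 15 h and no less than 4854 on any 4 h DMSO array. PRE8 was lower by 0.54 and RPT5 by 0.49.

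**Figure D3:**
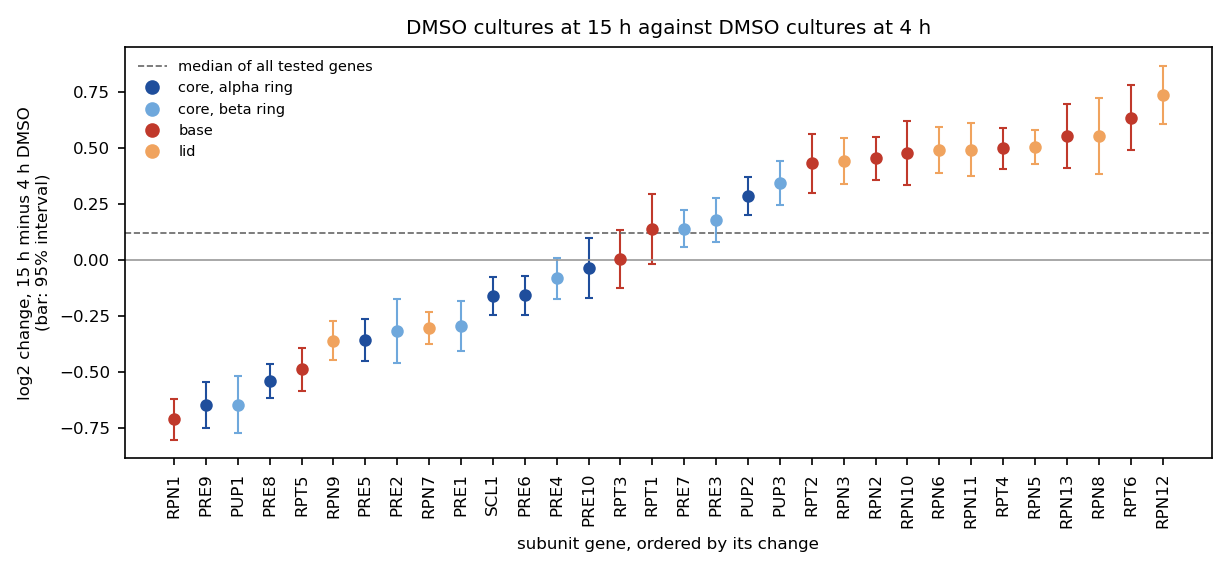
Each point is the log2 difference of a subunit between the 3 DMSO arrays at 15 h and the 9 DMSO arrays at 4 h (bar, 95% interval), ordered by size and coloured by alpha ring, beta ring, base or lid; the dashed line is the median of all tested genes, 0.12. Base and lid subunits fill the upper end from RPN12 at 0.74 downwards, and the core subunits lie below the regulatory median of 0.47, down to PRE9 at -0.65. The lowest point is RPN1 of the base, at -0.71, and RPT5 (-0.49), RPN9 (-0.36) and RPN7 (-0.30) also lie below the core median of -0.16.

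At 15 h, transcripts of nearly the whole complex were lower with E9591 than in DMSO of equal time. Of 32 subunits, 29 fell and 2 rose against DMSO, where 42.2% of all tested genes were called lower and 45.7% higher, and the median change was -0.43 against 0.05 over all genes. All but 1 of the 18 regulatory subunits fell, and 12 of 14 core subunits. The regulatory median was -0.63 and the core median -0.29, a gap of 0.34 that was 0.30 to 0.38 under the alternatives. The mean core level minus the mean regulatory level averaged -0.34 on the shared 15 h DMSO arrays, -0.085 with E9591 and -0.082 with LMT. On all 3 arrays of this group, the 3'/5' ratios of 3 of 8 control transcripts, SRB4, RIP1 and TDH1, were above those of the DMSO arrays, and their part in these falls was not tested. The mean subunit level was -0.37 with E9591, 0.10 in DMSO at 15 h and -0.02 to 0.09 in the DMSO groups at 4 h. With E9591 the means of RPN2, RPN10, RPN12 and RPN13 lay within the range of the 4 h DMSO group means. The other subunits called lower lay below that range.

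RPT6 fell furthest with E9591. It had 10294, 8251 and 8549.5 in DMSO and 3842, 3232 and 4339 with E9591, a fall of 1.25 ± 0.09 to 0.42 of the control (adjusted p = 1.09e-12). RPN8 went from 5945, 7651 and 7464 to 3151, 3480.3 and 2873, a fall of 1.14 (adjusted p = 1.28e-10). RPT2, the ATPase whose tail opens the core gate, fell by 1.01 from 5785, 5063 and 5166 to 2465, 2908 and 2569. The treated arrays lay below every DMSO array for each of the 3.

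RPN12 and RPT4 also fell, by 0.79 and 0.79, and RPN6 by 0.79. In the core, the falls with E9591 were led by PUP2 of the alpha ring (-0.74) and by the beta subunits PRE7 (-0.73) and PUP3 (-0.72). The protease subunits were lower by 0.52 for PRE3, the caspase-like site, 0.33 for PRE2 and 0.17 for PUP1. The call of PUP1 was lost under several alternatives, among them quantile normalization (-0.13, adjusted p = 0.103). The 2 risers were PRE8 and RPN9. PRE8 had 3000.0, 2972 and 3102 in DMSO and 3978, 3886 and 4088 with E9591, a rise of 0.40 ± 0.04 (adjusted p = 1.26e-08), and RPN9 rose by 0.28. On the 4 h DMSO arrays PRE8 held 4064 to 4730. PRE9 was not called, at -0.06 (adjusted p = 0.319).

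LMT at 15 h divided the subunits. Against the same DMSO arrays, 8 rose and 15 fell, where 41.9% of all tested genes were called higher and 41.9% lower, and the median was -0.09 against -0.01 over all genes. The 14 core subunits had 4 rises and 4 falls with a median of 0.00, and the 18 regulatory subunits 4 rises and 11 falls with a median of -0.28. PRE9 rose most, from 3634, 3699 and 3864 in DMSO to 5365, 5183 and 5984 with LMT, by 0.56 ± 0.06 (adjusted p = 6.86e-09). PRE8 rose by 0.37, PUP1 by 0.35, RPN9 by 0.28 and RPT5 by 0.26. Each of the 8 risers was called lower in DMSO at 15 h against DMSO at 4 h. For PRE9 the 4 h DMSO arrays held 5415 to 6217.

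RPN8 fell most with LMT, to 4079, 4443 and 3500.1, by 0.81 ± 0.10 (adjusted p = 8.22e-08). RPN12 fell by 0.71, RPN13 by 0.66, RPT6 by 0.56 and RPN5 of the lid by 0.47. RPN8 and these were also the subunits with the highest differences of DMSO at 15 h over DMSO at 4 h. The part of that DMSO difference in the changes with LMT was not tested. The medians of core and regulatory particle differed by 0.28, and by 0.19 to 0.36 under the alternatives. This gap rests on the same DMSO arrays as that with E9591. On them the mean core minus the mean regulatory level averaged -0.34, against -0.082 with LMT. The 3'/5' ratio of ACT1 was 1.14 to 1.18 in this group and 1.46 to 1.51 in DMSO. That of RIP1 was 0.875 to 0.963, against 0.774 to 0.863 in DMSO, and the part of either in the changes was not tested.

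**Figure D4:**
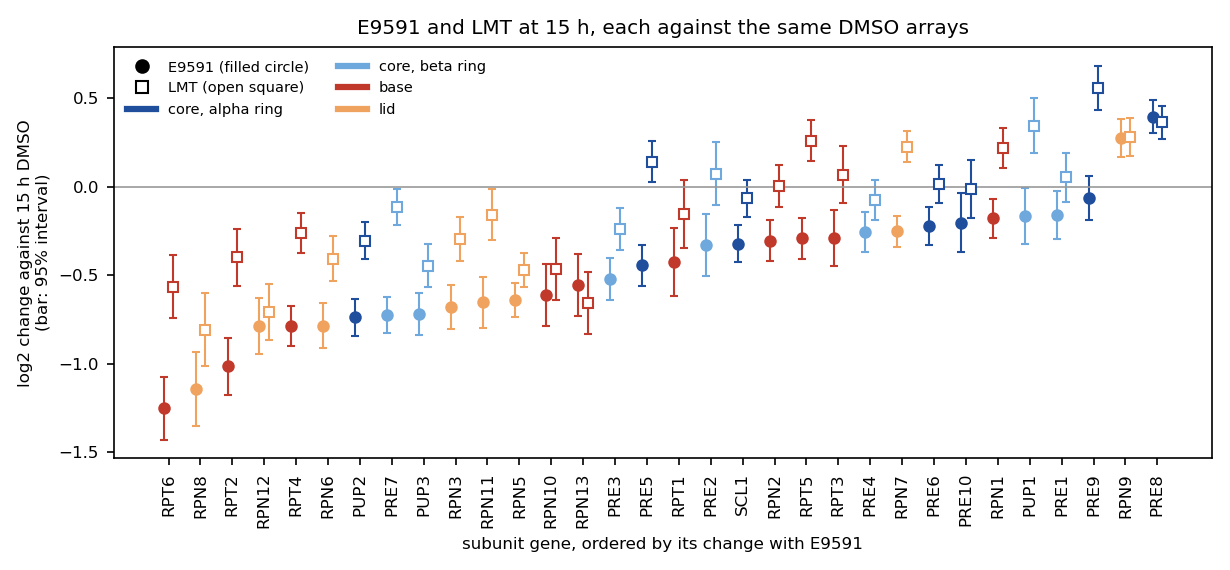
The plot gives the log2 change of each subunit at 15 h for E9591 (filled circles) and LMT (open squares) against the same 3 DMSO arrays (bars, 95% intervals), coloured by alpha ring, beta ring, base or lid. With E9591 all subunits but PRE8 and RPN9 lie below 0, down to RPT6 at -1.25, while with LMT they run from RPN8 at -0.81 to PRE9 at 0.56.

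E9591 and LMT could be set against each other at 15 h without the DMSO arrays. With E9591, 27 subunits were lower and 0 higher than with LMT, where 39.5% of all tested genes were called lower and 38.6% higher, and limma gave 0 higher at an unadjusted p under 0.05 too. The median difference was -0.35. It was -0.28 over the core and -0.37 over the regulatory particle, a gap of 0.09. RPT6 was lower with E9591 by 0.69, with 5949, 6327 and 5969.8 under LMT, and PRE9 and RPT2 were lower by 0.62 and 0.62. The 5 subunits not called were PRE8 (0.03), RPN9 (-0.01), RPN12 (-0.08), RPN13 (0.10) and RPN10 (-0.15). The 3'/5' ratio of SRB4 was 8.62 to 9.64 with E9591 and 4.25 to 5.06 with LMT. That of ACT1 was 1.40 to 1.61 against 1.14 to 1.18, and that of TDH1 1.047 to 1.227 against 0.978 to 1.036. The other control transcripts overlapped, and the part of these ratios was not tested.

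RPN4 stood the other way between these compounds. It had 4481, 4436 and 4300.4 in DMSO at 15 h, 3753, 3548 and 3979.7 with E9591 and 2785, 2908 and 3164 with LMT. It fell by 0.23 ± 0.08 with E9591 (adjusted p = 0.0108) and by 0.58 with LMT (adjusted p = 4.97e-07), and was 0.35 higher with E9591 than with LMT (adjusted p = 0.000414). Without E9591 replicate B the fall with E9591 was -0.19 and no longer called (adjusted p = 0.0554). All treated arrays at 15 h were above all DMSO arrays at 4 h for RPN4.

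The effect of each compound was also tested for a difference between 15 h and 4 h, each against its own DMSO arrays. For E9591, 2 subunits had a higher effect at 15 h and 19 a lower one, where 39.7% and 44.9% of all tested genes did. For LMT, 9 were higher and 11 lower, where 38.1% and 44.7% did. Both tests rest on the 15 h DMSO arrays, which the treated groups at 15 h share.

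**Figure D5:**
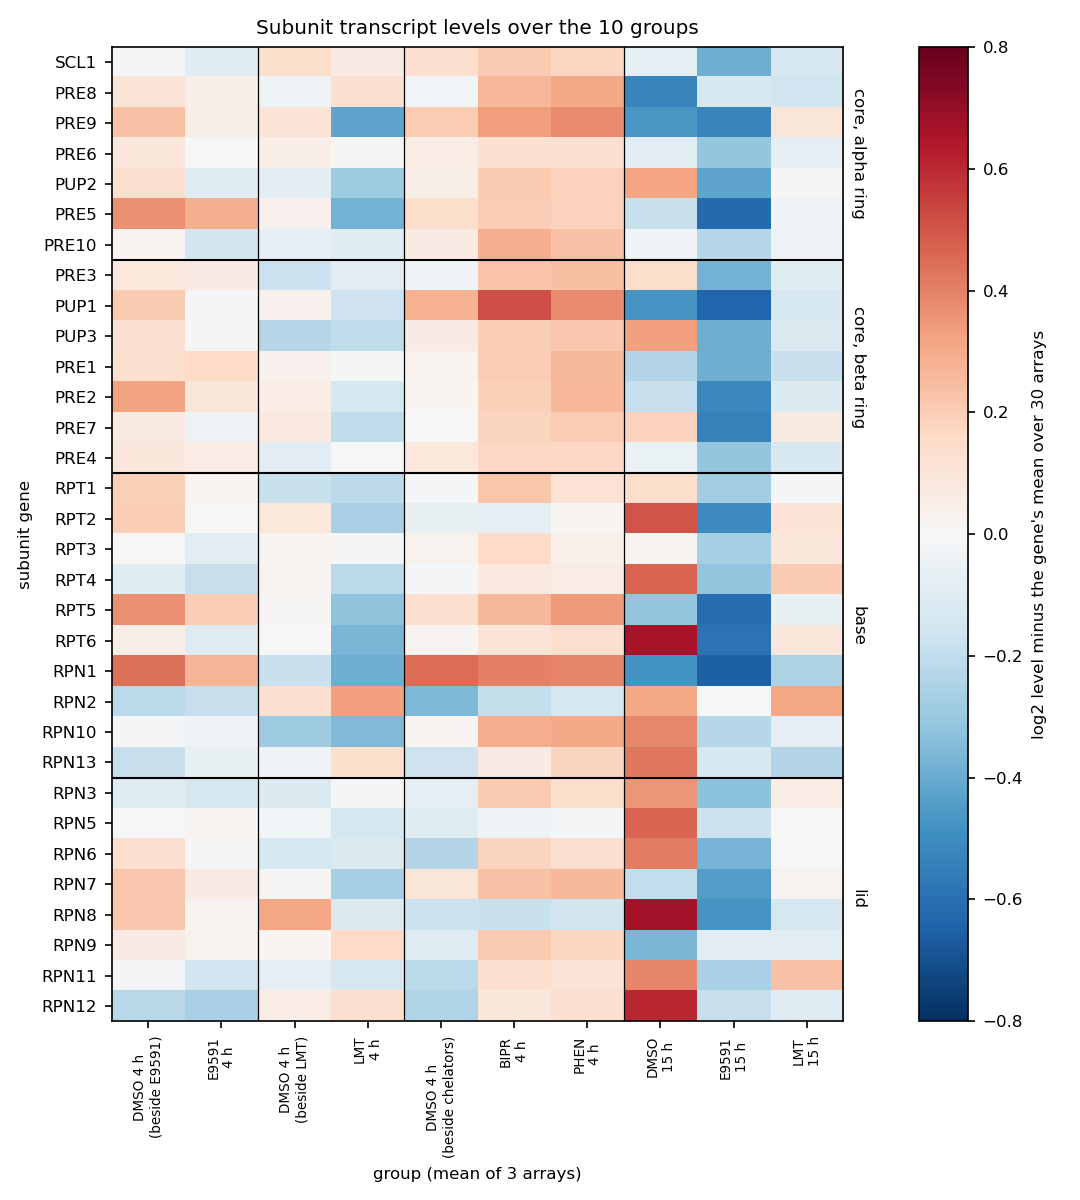
The map shows each subunit (rows, grouped by ring, base and lid) in the 10 groups (columns) as the mean log2 level of 3 arrays minus the mean of that gene over 30 arrays, from blue (low) to red (high). Base and lid subunits such as RPT6, RPN8 and RPN12 are highest in DMSO at 15 h, most subunits are lowest with E9591 at 15 h, and RPN1 is high in 2 of the 3 DMSO groups at 4 h and low in that beside LMT.

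The subunits also differed in how closely each followed the rest. Over the 10 group means, the Pearson correlation with the mean of the other subunits was highest for PRE7 (0.96), PRE3 (0.93) and PUP2 (0.91) and lowest for RPN2 (-0.32), RPN9 (0.18), PRE8 (0.22) and RPN12 (0.30). RPN4 had -0.36. These values describe 10 groups that include shared experiments. RPN2 had 2874, 2957 and 2802 in DMSO of the chelator experiment but 4204, 4134 and 3799.8 in DMSO beside LMT, so these DMSO groups of equal time did not overlap. Among genes outside the complex, those most like the mean subunit level over the 10 groups were ERG9 (0.97), YIP5 (0.95), TSC10 (0.95), RVS167 (0.94), ERG24 (0.93), UBP2 (0.93), CAP1 (0.93), ARP3 (0.93), HEM2 (0.91) and DSK2 (0.91).

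RPN14, the base assembly chaperone, fell with both compounds at 15 h. It had 1456, 1824 and 1666 in DMSO at 15 h, 666, 690.1 and 773 with E9591 and 1306, 1259 and 1299 with LMT, against 517 to 858 on the 4 h DMSO arrays. It fell by 1.21 ± 0.11 with E9591 (adjusted p = 1.11e-10) and by 0.35 with LMT, and was 1.25 higher in DMSO at 15 h than at 4 h. At 4 h it rose with PHEN, by 0.42, and was not called with E9591 (0.14), LMT (-0.02) or BIPR (0.18).

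Of the 8 other assembly chaperones, 3 rose and 3 fell with E9591 at 15 h, where 45.7% of all tested genes were called higher and 42.2% lower. With LMT at 15 h, 3 rose and 3 fell, where 41.9% were called each way, so the counts were near those of genes in general. The base chaperone NAS2 had 3617, 4099 and 4174 in DMSO at 15 h, 631, 572 and 657 with E9591 and 1167, 1124 and 1202 with LMT, while its 4 h DMSO arrays held 509 to 665. It fell by 2.67 ± 0.08 with E9591 (adjusted p = 9.19e-20) and by 1.76 with LMT, and was 2.79 higher in DMSO at 15 h than at 4 h. HSM3, another base chaperone, fell by 1.70 and 1.19, and UMP1, the core maturation factor, by 0.63 and 0.50.

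The 3 that rose were core chaperones. POC4 had 641, 581 and 638 in DMSO, 1429, 1455 and 1526 with E9591 and 1201, 1043 and 1235 with LMT, rises of 1.24 and 0.90. Its partner IRC25 rose by 0.85 and 0.55, and ADD66, of the other core chaperone pair, by 0.99 and 0.72. The partner of ADD66, PBA1, was not called (0.07 and 0.12), nor was NAS6 (0.01 and 0.14). At 4 h the list of 8 had 2 rises with E9591, 4 with LMT, 4 with BIPR and 3 with PHEN, where 32%, 40.4%, 27.7% and 29.2% of all tested genes were called higher in turn. It had 0 falls at adjusted p under 0.05 by limma, and 0 at unadjusted p. At the adjusted threshold, 11.3%, 25.2%, 18.5% and 19.7% of all tested genes were called lower in turn.

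Of 6 proteasome-associated genes, 5 fell with E9591 at 15 h and 3 with LMT, where 42.2% and 41.9% of all tested genes were called lower. UBP6, the proteasome-bound deubiquitinase, rose with LMT by 0.40. SPG5, a regulator of proteasome assembly in stationary phase, had 13391, 13541 and 15793 in DMSO at 15 h, 4257, 4617 and 4724 with E9591 and 5308, 5505 and 5803 with LMT. It fell by 1.65 and 1.36, and was 3.20 higher in DMSO at 15 h than on the 4 h DMSO arrays. BLM10, an alternative cap of the core, fell by 1.80 and 1.26. At 4 h, 2 of the 6 rose with E9591, 3 with LMT, 2 with BIPR and 4 with PHEN, beside shares of 32%, 40.4%, 27.7% and 29.2% over all tested genes. SEM1, a small lid subunit that the symbol rule does not take, fell with LMT at 4 h (-0.27) and with E9591 at 15 h (-0.42).

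Of 7 genes that act on RPN4, 5 rose with E9591 at 4 h, 6 with LMT, 5 with BIPR and 6 with PHEN, beside the same shares. At 15 h, 2 rose and 3 fell with E9591, where 45.7% and 42.2% of all tested genes did, and 6 fell with LMT, where 41.9% did. The transcription factors YAP1 and HSF1 rose with each compound at 4 h, YAP1 by 0.33 (E9591), 0.56 (LMT), 0.47 (BIPR) and 0.53 (PHEN). At 15 h YAP1 fell by 1.42 with E9591 and 1.53 with LMT. PDR3, the drug resistance activator, rose with E9591 and LMT at 4 h (0.20 and 0.50) and fell with BIPR and PHEN (-0.60 and -0.60), though its value with E9591 was negative after quantile normalization. UBR2, a ubiquitin ligase for Rpn4 protein, rose by 0.64 and 0.75 with the chelators. RAD6, a ubiquitin-conjugating enzyme of the same route, had 2625, 2763 and 2644 with E9591 at 15 h against 1219, 1285 and 1195 in DMSO and 1136, 1089 and 1089 with LMT, a rise of 1.12 with E9591 and a fall of 0.16 with LMT.

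Of 12 genes of the ubiquitin system, 9 rose and 1 fell with each chelator. Of all tested genes, 27.7% (BIPR) and 29.2% (PHEN) were called higher, and 18.5% and 19.7% lower. At 15 h, 9 fell with each of E9591 and LMT, where 42.2% and 41.9% were called lower. At 4 h, 5 rose and 2 fell with E9591, and 4 rose and 3 fell with LMT. These counts were near the shares over all tested genes, 32% and 40.4% called higher and 11.3% and 25.2% lower. The polyubiquitin gene UBI4 rose with all 4 compounds at 4 h, by 0.82 with E9591, 1.48 with LMT, 1.01 with BIPR and 1.22 with PHEN. DDI1, a shuttle with a protease fold, rose with BIPR and PHEN (0.62 and 0.57) and fell with E9591 and LMT at 15 h, from 2012, 2001 and 1971 in DMSO to 500.3, 476 and 457 with E9591 and 1028, 978 and 976 with LMT. The change of DDI1 with E9591 was -2.06. RAD23, another shuttle, fell in all 6 comparisons with DMSO, by 0.14 (PHEN) to 0.44 (E9591 at 15 h). CDC48, the ATPase that extracts ubiquitinated proteins, fell with E9591 at 15 h by 1.02 and was not called with LMT (-0.21).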

How the data were processed

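Total RNA of 30 cultures, in 10 groups of 3, was hybridised to Affymetrix yeast arrays, 1 array per culture, per the labels' protocols. The deposited table holds the authors' intensity values per probe set on a linear scale, with the arrays already scaled to a common trimmed mean. The sources used here do not give the summarisation method or its software. Of 10928 probe sets, 5498 were annotated to 1 gene, giving 5449 genes, with the probe set of the highest mean kept for the 47 genes with more than 1.

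Values were tested as log2(intensity + 1) with limma 3.58.1 in R 4.3.3, with a mean per group over all 30 arrays, contrasts between groups, and Benjamini-Hochberg adjustment over 5429 genes. A gene was tested where at least 3 arrays exceeded the 95th percentile of the 1746 probe sets of another species on that array (11.2 to 34.5), which left out 20. The fit was tested on simulated data. Arrays carry no read depth, and the number of arrays limits the precision.

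Members and gene lists were chosen with earlier results of these data known. All members could be named, and each comparison names RPN4, up to 5 subunits at either end and those whose call differs. A promoter motif search that had been planned was not run, since promoter sequences were not used here. The alternatives were other array scalings, pseudocounts and floors, no filter, all probe sets of a gene, array weights, a replicate block, arrays of 1 experiment only, and leaving out each array.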

Additional observations from a re-analysis of the deposited data

Results flagged for a closer look

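The effects of E9591 and LMT differed between 15 h and 4 h by limma's test of the difference itself, in which each effect is taken against its own DMSO arrays. For RPN4 the effect at 15 h minus that at 4 h was -0.85 log2 units with E9591 (adjusted p = 2.93e-07) and -2.09 with LMT (adjusted p = 2.47e-14). With E9591, 2 subunits had a higher effect at 15 h and 19 a lower one, where 39.7% and 44.9% of all tested genes did. PRE8 (0.44) and RPN9 (0.32) were the higher ones, and RPT6 (-1.10), RPN8 (-0.95), RPT2 (-0.81), RPN12 (-0.75) and RPT4 (-0.70) differed most downwards. With LMT, 9 were higher and 11 lower, where 38.1% and 44.7% of all tested genes were. PRE9 (1.09), RPT5 (0.59), PRE5 (0.55), PUP1 (0.54) and RPN7 (0.50) led the higher ones, and RPN13 (-0.83), RPN12 (-0.78), PUP3 (-0.47), RPN6 (-0.43) and RPN10 (-0.39) the lower ones. PRE9 was the subunit with the largest opposite changes under LMT, a fall at 4 h and a rise at 15 h, each against its own DMSO arrays. Its levels with LMT at 15 h, 5183 to 5984, overlapped those of the 4 h DMSO arrays, 5415 to 6217. The 15 h DMSO arrays held 3634 to 3864. Time and experiment cannot be told apart in these values.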

How the results depend on the processing

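The 15 h counts of subunits, for E9591 and LMT against DMSO, for one against the other and for DMSO at 15 h against 4 h, stayed within 1.5 times under every alternative run, and the called RPN4 changes kept direction and call, except that with E9591 at 15 h, which ranged from -0.27 to -0.19 when 1 array was left out. The RPN4 difference between PHEN and BIPR, never called, was -0.030 (quantile) and -0.016 (centred). The 4 h counts moved, and all-gene medians shifted by up to -0.14 with quantile normalization and -0.20 with centring. With E9591 at 4 h, 8 lower subunits became 1 (quantile), 27 (centred), 13 (arrays of 1 experiment), 19 (array weights) and 2 to 7 (1 array left out), and 0 higher became 1 (arrays of 1 experiment). With LMT at 4 h, 3 higher became 10 (quantile), 0 (centred) and 5 (weights), and 14 lower became 23 (centred). With BIPR, 17 higher became 7 (centred) and 10 (arrays of 1 experiment), and with PHEN 18 became 6 (centred). For the difference between E9591 and LMT effects at 4 h, 2 higher became 5 (weights) and 1 lower became 3 (quantile), 0 (centred), 3 (weights) and 0 to 2 (1 array left out). For LMT at 15 h against 4 h, 11 lower became 6 (centred).

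Genes called in the main setting or the alternative changed sign as follows, and the cause was not tested (changes called in neither are not listed). With E9591 at 4 h and centring, RPN5 was -0.15, UFD2 -0.024 and UBR1 -0.0045. With quantile normalization, NAS2 was -0.0053, UBR2 -0.36, MUB1 -0.029, PDR3 -0.18, DDI1 -0.17 and UFD1 -0.13. With LMT at 4 h and centring, PRE8 was -0.039, RPN2 -0.0049, RPN6 -0.18, RPN9 -0.057, RPN12 -0.13, UMP1 -0.040, PBA1 -0.014, POC4 -0.20, UBP6 -0.14 and UFD1 -0.066. With quantile normalization, UBR2 was -0.013 and UFD1 -0.074, and with LMT at 15 h MUB1 was -0.16. For DMSO at 15 h against 4 h, UFD2 was -0.14 (quantile) and -0.12 (centred). Replicate letters recur in every group. Same-letter arrays of 1 experiment correlated at -0.09 to 0.33 (median 0.05, over 0.1 in 7 of 24 pairs). Other letters gave -0.33 to 0.13 (median -0.02, over 0.1 in 4 of 48), so same-letter pairs had the higher median. The main fit did not pair the arrays by letter, and a replicate block was run as an alternative. With the replicate block, RPN4 with LMT at 4 h was 1.51 and 13 subunits were lower, E9591 at 15 h had 28 lower, and no count moved by over 1.5 times.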
